A study of Mus musculus with 3 samples.

Results

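Arterial blood endothelium of mouse ear skin was taken here as the barcodes with at least 4 UMIs (unique transcript molecules) of Sema3g and Bmx together. At least 2 UMIs of the endothelial genes Cdh5 and Ptprb, none of the lymphatic genes Prox1 and Mmrn1, none of the leukocyte gene Ptprc and at most 1 UMI of the venular genes Selp and Ackr1 were also required. Barcodes under 500 genes or 1000 UMIs, or with over 10% of UMIs from mitochondrial genes, were left out. Of the 37961 others, 1565 met this rule. They were 425 of 12399 in young WT, 689 of 12621 in adult WT and 451 of 12941 in adult Lang-DTA.

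The 3 libraries were of untreated mice, 1 library per condition: C57BL/6J wild type at 4 weeks (young WT, 5 male and 3 female mice), C57BL/6J wild type at 8 weeks (adult WT, 6 male and 4 female) and Langerin-DTA at 8 weeks (adult Lang-DTA, 4 male and 6 female). Langerin-DTA mice express diphtheria toxin A under human Langerin regulatory sequence and so lack Langerhans cells, the resident antigen-presenting cells of the epidermis; wild-type mice were littermates from crosses of hemizygous Langerin-DTA males with wild-type females. Each library pooled ear skin of 8 to 10 mice and mixed 4 sorted populations at equal parts: PDPN+ and PDPN- cells among CD45- CD31+ cells, CD45+ cells, and CD45- CD31- cells. The series as titled asks about Langerhans cells and the development of dermal lymphatic vessels, and its design gives 2 comparisons, age (adult WT against young WT) and genotype (adult Lang-DTA against adult WT), which share the adult WT library. With 1 library per condition neither comparison has a replicate check, so no p-value is given for them; intervals are exact 95% intervals that cover counting error only, and differences between the pools of mice, the sorts and the libraries cannot be told apart from age or genotype.

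Arteries and arterioles carry blood at high pressure, and their endothelium is set apart from that of veins by Notch signalling, by SoxF and Hey transcription factors, by ephrin-B2 and by gap junctions of connexin 37 and connexin 40. Arterial endothelial cells also lie on an internal elastic lamina and take part in building it in the growing animal. Sema3g encodes a secreted semaphorin and Bmx a cytoplasmic tyrosine kinase, both long used as arterial endothelial markers. Sema3g lies on chromosome 14 (31217860 to 31230352, plus strand) and Bmx on chromosome X (164192842 to 164258193, minus strand) of GRCm38.

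The arterial cells held 4726956 UMIs in young WT, 7179115 in adult WT and 4057358 in adult Lang-DTA, with a median per cell of 9957, 8833 and 7269. Levels are in CPM, the UMIs of a gene scaled to a total of 1000000 UMIs for each group of cells. Below, 3 values in a row are for young WT, then adult WT, then adult Lang-DTA. No barcode was an arterial cell in more than 1 library, and 12 of the 1565 had a barcode that occurs in another library. A doublet caller marked 74 members, 262 had at least 3 UMIs of marker genes of other skin cells, 49 held both Xist and Y-linked transcripts, and 1277 had none of these signs. The marker sign was common in venular cells, gated as given below, at 290 of 549, 609 of 1033 and 324 of 720 in the 3 libraries. It is therefore no proof of a second cell, and leaving such cells out can also remove endothelium with these transcripts. Summed over the members, mural markers stood at 958, 497 and 357 CPM in the 3 libraries, fibroblast markers at 242, 151 and 537, keratinocyte markers at 484, 602 and 950, and erythroid markers at 7.40, 5.15 and 132. These sums moved with the conditions, and the main counts they could touch are given again for the 1277 cells without such signs; their part in the results was not tested otherwise. Cells with transcripts of male mice made up 58.6%, 48.9% and 35.5% of the members.

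To show the letters searched, the 250 bases before the RefSeq start site of 4 arterial genes follow, read 5′ to 3′ along the gene from the RefSeq table of GRCm38.p6. Windows of 6 genes were searched; those of Efnb2 and Vegfc held neither motif and are not shown. Capitals mark matches, on either strand, to ACAAT, a core of SoxF sites, or to TGGGAA, the core of the Notch effector RBPJ.
Gja4 upstream window, chr4:127314040-127314289, minus strand: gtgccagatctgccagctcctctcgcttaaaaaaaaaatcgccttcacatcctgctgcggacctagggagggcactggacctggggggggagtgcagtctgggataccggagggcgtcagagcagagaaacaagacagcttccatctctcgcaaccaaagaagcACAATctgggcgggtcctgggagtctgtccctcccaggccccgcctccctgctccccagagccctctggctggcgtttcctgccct
Gja5 upstream window, chr3:97032152-97032401, plus strand: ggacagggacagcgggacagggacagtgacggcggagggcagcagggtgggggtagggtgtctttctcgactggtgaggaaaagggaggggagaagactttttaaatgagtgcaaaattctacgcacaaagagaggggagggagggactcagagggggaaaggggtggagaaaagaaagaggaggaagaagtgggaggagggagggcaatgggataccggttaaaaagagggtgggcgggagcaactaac
Fbln5 upstream window, chr12:101819120-101819369, minus strand: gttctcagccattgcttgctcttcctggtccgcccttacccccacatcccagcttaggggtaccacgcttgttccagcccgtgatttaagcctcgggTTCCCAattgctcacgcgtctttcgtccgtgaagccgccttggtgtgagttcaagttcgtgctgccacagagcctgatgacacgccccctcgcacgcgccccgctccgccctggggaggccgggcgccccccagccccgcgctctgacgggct
Edn1 upstream window, chr13:42301226-42301475, plus strand: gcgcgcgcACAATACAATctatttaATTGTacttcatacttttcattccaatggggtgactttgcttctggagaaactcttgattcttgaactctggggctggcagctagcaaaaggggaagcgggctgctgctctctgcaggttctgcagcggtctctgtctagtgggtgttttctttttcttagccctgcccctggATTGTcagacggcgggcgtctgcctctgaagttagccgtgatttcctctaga
The Gja4 window held 1 SOX match, whose first base lay 86 bases before the start. None was found in the Gja5 window, which GENCODE places inside a longer Gja5 transcript unit. Fbln5 had 1 RBPJ match, at 153 bases, and Edn1 had 4 SOX matches, at 242, 237, 225 and 52 bases. Such short matches are common: of 32851 windows of this length, 27.7% held the SOX letters and 21.6% the RBPJ letters, so a match here is a description of the letters only. The 2 motifs did not overlap in these windows.

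The rule itself set the levels of Sema3g and Bmx, which are therefore given as a description. Sema3g stood at 617, 440 and 532 CPM in the 3 libraries, and Bmx at 316, 505 and 444. A member held a median of 6, 4 and 4 Sema3g UMIs and 3, 4 and 3 Bmx UMIs. Both transcripts were detected in 1339 of the 1565 members. At the threshold, 57, 103 and 91 members had exactly 4 UMIs of both genes together, and 71, 156 and 115 cells with exactly 3 were left just outside. Among barcodes with no endothelial or lymphatic transcript of the rule, a sum of at least 4 was reached by 1 of 5443, 2 of 6596 and 0 of 6740 (which allows up to 0.0547% at the exact 95% limit). It was reached by 5.23%, 4.80% and 2.14% of lymphatic cells, defined by at least 4 UMIs of Prox1 and Mmrn1, which the rule keeps out by their lymphatic transcripts.

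The 3 named markers that the rule did not use were present in the cells it found. Sox17, a SoxF transcription factor of arterial identity, was detected in 94.1%, 93.6% and 93.3% of members, at 533, 473 and 483 CPM in the 3 libraries. Venular cells of the same libraries, gated by at least 4 Selp and Ackr1 UMIs, held 102, 110 and 98.4, and capillary cells, gated by at least 4 Cd36 and Gpihbp1 UMIs, held 193, 243 and 212. Both gates allowed at most 1 UMI of Sema3g and Bmx, and the capillary gate at most 1 of Selp and Ackr1. Vegfc, the growth factor of lymphatic vessels, stood at 648, 414 and 511 in arterial cells against at most 50.3 in venular and 33.0 in capillary cells. Edn1, the precursor of the vasoconstrictor endothelin-1, stood at 738, 656 and 642 against at most 187 and 156. None of these 3 genes overlapped between arterial and venular or capillary cells in any library, and the label arterial was kept. Of 12891 genes in the edgeR test described below, 1056 (8.19%) were higher against both groups with the same sign in all 3 libraries. Genes that go with Sema3g and Bmx from cell to cell are separated by these gates. The separation therefore describes the gated groups and is no independent check of the label.

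**Figure D1:**
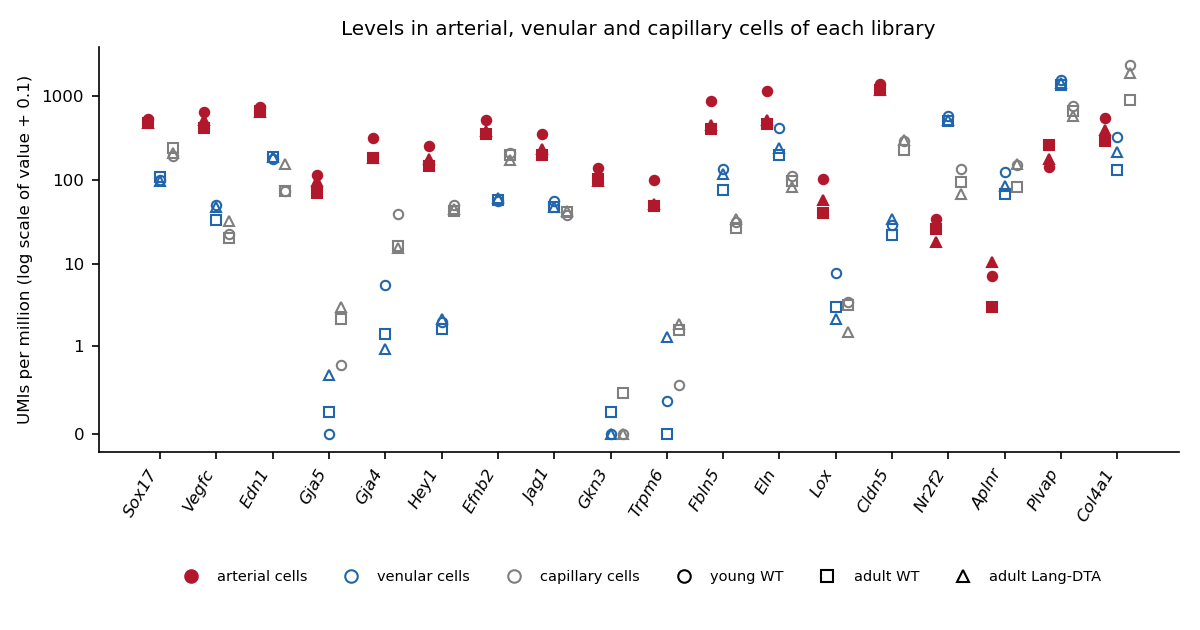
Levels of 18 genes in CPM (log scale of the value plus 0.1) in arterial (filled red), venular (open blue) and capillary cells (open grey); circles are young WT, squares adult WT and triangles adult Lang-DTA. Gja5 and Gkn3 are at 71.0 or more in each arterial library and at 3.03 or less elsewhere, whereas Nr2f2, Aplnr and Plvap are lowest in arterial cells.

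Arterial cells were then compared with the 2302 venular and 1617 capillary cells by edgeR's quasi-likelihood test on UMIs summed per library and cell group, with library as a term and Benjamini-Hochberg adjustment over 12891 genes. The 3 libraries stand in as replicates although they are different conditions, and genes used by any gate were left out of the calls. Since all 3 groups were chosen by transcripts, genes that go with the gate genes from cell to cell differ between them by that choice. The same gates were used in every library, so they also bear on the fold sizes and their evenness over libraries. The calls and p-values therefore describe these gated groups. Genes higher in arterial than venular cells numbered 2121 (16.5% of those tested) and genes lower 2284 (17.7%); against capillary cells the counts were 1577 (12.2%) and 1415 (11%). Higher against both, with the same sign in all 3 libraries, were 1056 genes (8.19%), and lower against both 794 (6.16%). The list counts below are to be read beside these shares. Without the young WT library, the counts fell to 1364 and 1468 against venular and 970 and 780 against capillary cells; without adult WT the genes lower numbered 1509 and 943.

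Gap junction genes of the arterial surface list went both ways. Gja5, which encodes connexin 40 (chromosome 3, 96904693 to 97077416, plus strand), stood at 116, 71.0 and 97.1 CPM in the arterial cells of the 3 libraries. Venular cells held at most 0.387 and capillary cells at most 3.03, a log2 difference of 9.05 ± 0.41 (SE, adjusted p = 3.4e-07 by edgeR) and 5.54 ± 0.31 (3.4e-06). Gja4, which encodes connexin 37 (chromosome 4, 127311421 to 127314039, minus strand), stood at 312, 182 and 186, against at most 5.67 in venular and 39.3 in capillary cells. By contrast Gja1, the gene of connexin 43, was lower in arterial cells, by a log2 difference of -0.71 ± 0.11 and -1.03 ± 0.11 (adjusted p = 0.00099 and 0.00017 by edgeR). It was the 1 member of the list of 25 that was lower against both, whereas 19 were higher.

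Other surface genes followed the same order. Efnb2, which encodes ephrin-B2, stood at 515, 355 and 382 CPM in arterial cells, at 57.4 to 61.0 in venular and at 172 to 208 in capillary cells, so the groups did not overlap. Cldn5, the tight junction claudin of endothelium, stood at 1398, 1157 and 1158 against at most 34.8 and 297. Alpl, an alkaline phosphatase, was detected at 85.9, 69.2 and 79.8 and was at 0 in 2 of the 3 venular sums. Gkn3, a gastrokine gene, held 140, 102 and 97.4 in arterial cells and at most 0.199 elsewhere. Among the 12 genes with the largest difference against both groups were also Trpm6, a magnesium channel (101, 49.9 and 52.7), Tox2, a nuclear HMG box protein (143, 104 and 96.6), Ptchd1, a patched domain protein (118, 79.0 and 92.2), and Atp2b2, a plasma membrane calcium pump (88.2, 78.3 and 81.3). Jakmip2, Wdr72, Wfdc1 and Diras2 were in that set at 12.5 CPM or less.

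Transcription factors of the arterial list were higher against both groups in 9 of 18 tested and lower in 2, against 8.19% and 6.16% of all genes. Hey1, a Notch target that represses venous genes, stood at 256, 146 and 180 CPM against 1.64 to 2.19 in venular and 43.2 to 50.7 in capillary cells, a log2 difference of 6.54 ± 0.16 and 2.08 ± 0.11 (adjusted p = 2.5e-08 and 2.6e-06 by edgeR). Its relative Hey2 held 29.8, 22.4 and 27.1 against at most 1.84. Lmo2, a cofactor of GATA factors, stood at 369, 247 and 247, at most 74.6 in venular and at most 61.0 in capillary cells. Mecom, Epas1, Gata2, Sox18 and Klf2 were also higher against both. Nr2f2, the gene of the venous factor COUP-TFII, and Fli1, an ETS factor, were lower, with log2 differences of -4.41 ± 0.16 and -1.84 ± 0.17 for Nr2f2. Erg, present throughout endothelium, did not pass against either group (adjusted p = 0.27 and 0.63 by edgeR).

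Of 25 genes that act on vessel tone, 10 were higher against both groups and 5 lower, against 8.19% and 6.16% of all genes tested. Besides Edn1, the higher genes included Kcnn4, the intermediate-conductance calcium-activated potassium channel (38.7, 36.5 and 34 CPM against at most 1.99), Nos3, the endothelial nitric oxide synthase (255, 218 and 181 against at most 165), and Npr3, a natriuretic peptide clearance receptor (46.5, 70.5 and 61.9 against at most 31.6). The endothelin receptor gene Ednrb was 5.67 ± 0.14 higher on the log2 scale than in venular and 0.60 ± 0.10 higher than in capillary cells. Ptgs1, the constitutive cyclooxygenase, and Calcrl, the receptor of adrenomedullin, were lower: Ptgs1 stood at 8.25 to 10.2 in arterial and at 131 to 161 in venular cells.

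Of the Notch list, 7 of 20 genes were higher against both groups and none lower, against 8.19% and 6.16% of all genes tested. The ligands Jag1, Jag2 and Dll4 were among them: Jag1 stood at 350, 199 and 236 CPM in arterial cells and at no more than 56.9 elsewhere. Dll4 stood at 327, 252 and 255, well above venular cells (56.7 to 65.8) but close to capillary cells (191 to 299), a log2 difference of 0.30 ± 0.09 (adjusted p = 0.038 by edgeR). The receptor gene Notch4 was higher by 3.5 ± 0.18 and 0.84 ± 0.16 on the log2 scale, and Notch1 by 0.53 ± 0.07 and 0.46 ± 0.07. Hes1, a general Notch target, differed little between vessel types (0.33 ± 0.08 and adjusted p = 0.0095 by edgeR against venular cells, 0.07 ± 0.08 and adjusted p = 0.59 by edgeR against capillary cells).

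Of 28 elastic fibre and interstitial matrix genes, 9 were higher against both groups and none lower, against 8.19% and 6.16% of all genes tested. The median log2 difference of the list was 0.0133 against venular and 0.985 against capillary cells, and 5 were lower than in venular cells. Eln, the gene of elastin (chromosome 5, 134702593 to 134747323, minus strand), stood at 1151, 465 and 520 CPM, against 202 to 414 in venular and 83.3 to 112 in capillary cells. Its partners Fbln5 (fibulin-5), Lox (lysyl oxidase) and Fn1 (fibronectin) were higher against both by 2.29 to 4.99 on the log2 scale. Of 16 basement membrane genes, 11 were higher than in venular cells (16.5% of all genes tested) but 10 lower than in capillary cells (11% of all). Col4a1 stood at 547, 288 and 396, between venular (133 to 329) and capillary cells (892 to 2292). Col18a1 and Lama3 were higher against both, and Col15a1 lower against both.

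Venous markers were lower against both groups in 7 of 16 and higher in none, against 6.16% and 8.19% of all genes tested. Plvap, the diaphragm protein of fenestrae and caveolae, stood at 143, 263 and 176 CPM against 569 or more elsewhere. Apln and its receptor gene Aplnr, which mark sprouting and venous or capillary endothelium, were among the 12 genes with the largest difference below both. Chemokine genes in that set were Cxcl9, Ccl11 and Ccl2, all at 2.75 or less in arterial cells. Of 28 interferon response genes 12 were higher against both groups and 1 lower, against 8.19% and 6.16% of all genes tested. The lower was Iigp1, an immunity-related GTPase (706, 1195 and 1112 against 1145 to 2144). Ifi47, of the same family, was higher by 0.86 ± 0.08 and 0.93 ± 0.09 on the log2 scale.

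Some arterial genes stood higher in members with more Sema3g and Bmx UMIs and others did not; since this order uses the values of the rule, it is a description. Gja5 stood at 36.8, 19.1 and 54.9 CPM in cells with 4 or 5 such UMIs, and at 160, 117 and 155 in cells with 10 or more. Eln went from 425, 203 and 281 to 1516, 707 and 786, and Gkn3 from 39.0, 37.7 and 18.8 to 222, 160 and 186. Plvap went the other way, from 281, 492 and 303 to 65.8, 106 and 63.9, and so did Col4a1, from 981, 412 and 587 to 347, 195 and 225, and Tacr1, the substance P receptor gene of venular cells, from 32.2, 111 and 76.0 to 0.822, 6.47 and 0.672. Of genes higher in arterial than in venular and capillary cells, Dll4 stood at 331, 273 and 249 against 324, 260 and 272, and Ednrb was lower with more such UMIs, at 271, 157 and 130 against 95, 99.2 and 71.9. Sox17 stood at 511, 402 and 466 against 580, 506 and 474. Hes1 stood at 227, 660 and 551 against 188, 674 and 504. Cells with more such UMIs were also deeper, with medians of 11425, 10651 and 9739 UMIs against 7920, 7485.5 and 6258, so the grade follows both the gate and depth; the part of depth in it was not tested.

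**Figure D2:**
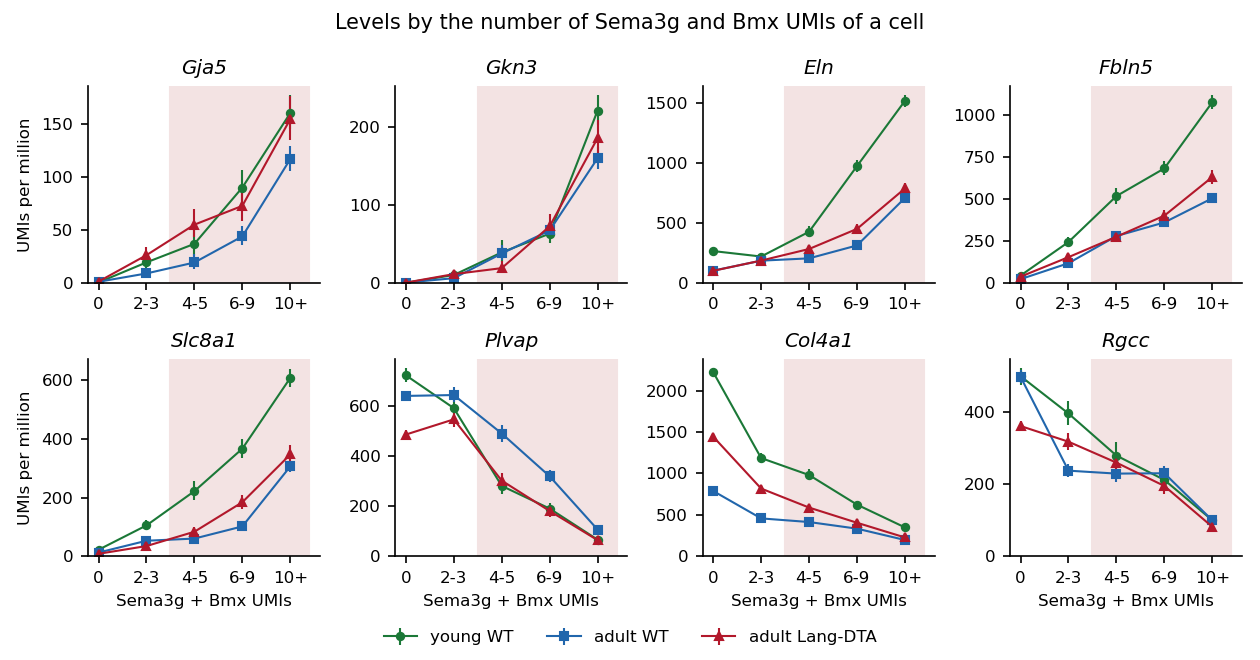
Levels of 8 genes in CPM against the number of Sema3g and Bmx UMIs of a blood endothelial cell, with exact 95% counting intervals, in young WT (green circles), adult WT (blue squares) and adult Lang-DTA (red triangles); the shaded cells are arterial by the rule. Gja5, Gkn3, Eln, Fbln5 and Slc8a1 are highest at 10 or more, and Plvap, Col4a1 and Rgcc lowest there.

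Members with more Sema3g than Bmx UMIs were 302 of 425 in young WT (71.1%, exact binomial 95% interval 66.5 to 75.3), 264 of 689 in adult WT (38.3%, 34.7 to 42.1) and 236 of 451 in adult Lang-DTA (52.3%, 47.6 to 57). Those with more Bmx were 87 (20.5%), 357 (51.8%) and 180 (39.9%). The share with more Sema3g was highest in the young WT and lowest in the adult WT library. The intervals cover counting error over cells of single libraries, and the split uses the genes of the rule, so these shares describe the 3 libraries and give no test of a condition.

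The 2 kinds of member were compared gene by gene in each library, leaving out Sema3g and Bmx. The Sema3g-leaning cells were deeper, with medians of 10570.5, 9638.5 and 7840.5 UMIs against 8503, 8301 and 6706. Of 7631 genes measured, 39 (0.511%) were at least 1.5-fold higher in the Bmx-leaning cells of all 3 libraries and 9 (0.118%) at least 1.5-fold higher in the Sema3g-leaning cells. Bmx-leaning cells held more Slco2b1, an organic anion transporter (83.8 against 31.8 CPM in adult WT, with log2 ratios of 1.63, 1.40 and 1.19 in the 3 libraries). They also held more Lepr, the leptin receptor (1.34, 1.02 and 1.23), Htr2a, a serotonin receptor (2.04, 0.87 and 1.09), and Aqp1, the water channel (0.94, 1.20 and 0.83). Slco2b1 stood higher in venular cells, at 167, 203 and 221, than in all arterial members, at 24.5, 60.2 and 38.2. Bmx stood at 17.4, 23.9 and 26.2 in venular cells and Sema3g at no more than 0.851, although that gate limits both. The part of venular transcripts in this split was not tested. Among the 9 genes higher in Sema3g-leaning cells were Aqp7, a glycerol channel (log2 ratios of -1.68, -1.50 and -1.70 for Bmx-leaning over Sema3g-leaning cells), Tcf15, a transcription factor of fat and heart capillaries (-1.30, -1.38 and -1.44), and Fabp4, the fatty acid binding protein (-0.88, -0.94 and -1.33). Fabp4 stood at 3277, 2834 and 4093 in Sema3g-leaning and 1783, 1476 and 1624 in Bmx-leaning cells. Rgcc and Gpihbp1, which mark capillaries, did not follow them past 1.5-fold in all 3 libraries: Gpihbp1 stood at 89.8 in Sema3g-leaning and 92.1 in Bmx-leaning cells of adult WT. Gkn3 stood at 134, 108 and 87.8 in the Sema3g-leaning and 146, 99.5 and 121 in the Bmx-leaning cells.

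**Figure D3:**
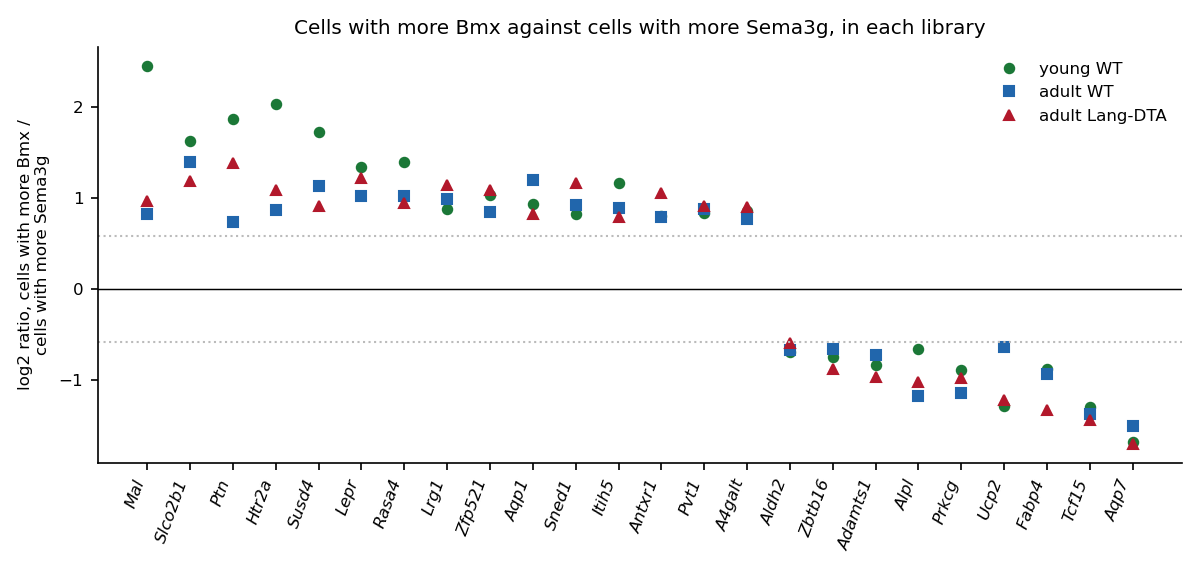
Log2 ratio of each gene in members with more Bmx over members with more Sema3g UMIs, for the 15 genes highest in the first (left) and the 9 at least 1.5-fold higher in the second (right); green circles are young WT, blue squares adult WT and red triangles adult Lang-DTA, and dotted lines mark 1.5-fold. Every gene shown is past 1.5-fold in the same direction in each library, with Slco2b1 at 1.19 to 1.63 and Aqp7 at -1.50 to -1.70.

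Of blood endothelial cells by the same filters, arterial cells were 24.9% in young WT (425 of 1706, exact binomial 95% interval 22.9 to 27), 19.7% in adult WT (689 of 3501, 18.4 to 21) and 16.8% in adult Lang-DTA (451 of 2687, 15.4 to 18.3). Since the rule counts UMIs and the young cells were deeper, cells were also thinned to 3000 UMIs, leaving out 106, 260 and 240 cells below that depth. The gates were then applied again to the thinned counts, which left 1535, 3078 and 2321 blood endothelial cells. Arterial shares of these were 9.38% (7.97 to 11), 8.28% (7.33 to 9.31) and 7.41% (6.38 to 8.55). The order stayed the same but all 3 intervals overlapped. Overlap of separate intervals does not show that shares are equal, and a difference at that depth was not tested. The part of the equal mixing of sorted populations in these shares was not tested, and the recovery of vessel types in digestion and sorting was not measured.

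**Figure D4:**
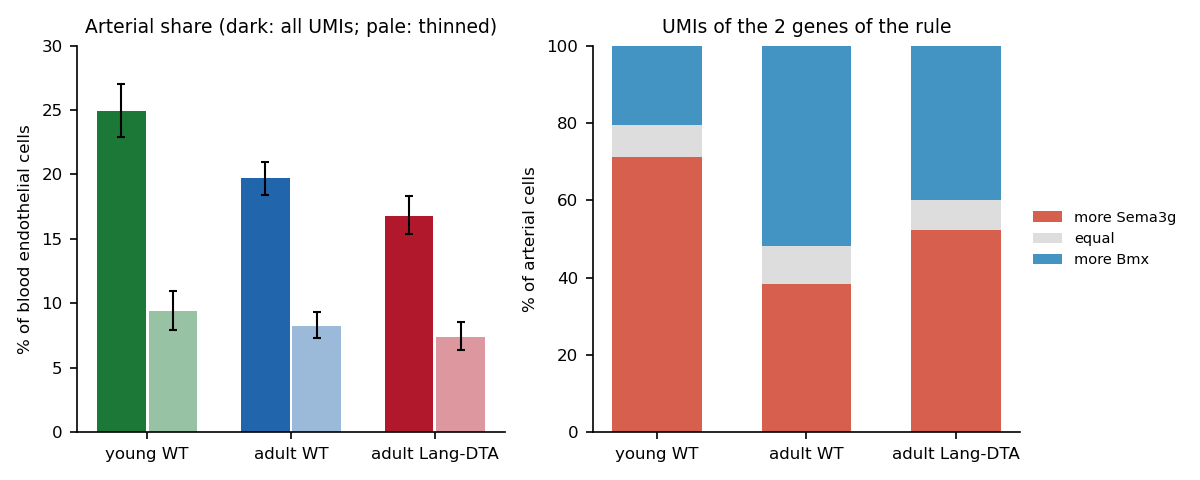
Left, arterial cells as a percentage of blood endothelial cells in each library, with all UMIs (dark) and after thinning to 3000 UMIs per cell (pale), with exact binomial 95% intervals; the thinned shares lie between 7.41% and 9.38%. Right, the percentage of arterial cells with more Sema3g, equal or more Bmx UMIs, where more Sema3g makes up 71.1%, 38.3% and 52.3% in the 3 libraries.

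Arterial cells of adult WT held less than those of young WT of many genes of the elastic fibre and basement membrane lists and of the connexin genes Gja4 and Gja5. In all, 10390 genes had at least 50 UMIs over both libraries, of which 620 (5.97%) were at least 1.5-fold higher and 799 (7.69%) at least 1.5-fold lower in adult WT than in young WT, 13.7% in all, around a median log2 ratio of -0.07. With median-of-ratios scaling the counts were 796 and 626, so the balance of higher and lower genes depends on the scaling. Among genes with a UMI in at least 10% of the members of the higher library, the counts were 412 (4.90%) and 412 (4.90%) of 8405, or 9.80% in all. Of 19 genes of the general junction list 2 were higher and 2 lower (median log2 ratio -0.19). In the arterial surface list 8 of 25 genes were lower and 1 higher, with a median log2 ratio of -0.42. For the genes of that list measured in the other vessels, 2 of 21 were lower and 2 higher in venular cells (median -0.0089), and 2 of 22 each way in capillary cells (median -0.17). Whether these shifts differ between vessel types was not tested.

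Gja4 went from 312 CPM in young WT to 182 in adult WT, a log2 ratio of -0.78 (95% interval -0.89 to -0.67). Gja5 went from 116 to 71.0 (-0.71, -0.89 to -0.54), whereas Gja1 went up from 126 to 204 (0.70, 0.56 to 0.84). Gja4 was also lower in the adult WT venular and capillary cells, with log2 ratios of -2.01 and -1.25, at a far lower level. Jag1 went from 350 to 199 (-0.82), with -0.24 in venular and 0.12 in capillary cells, and Hey1 from 256 to 146 (-0.81), with -0.28 and -0.23. Efnb2 stood at 515 in young WT and 355 in adult WT, a ratio of -0.54 that did not reach 1.5-fold, against 0.02 and -0.07 in the other vessels. Ace, the angiotensin-converting enzyme, went from 385 to 242, and Igfbp3, a binding protein of insulin-like growth factors, from 451 to 269. Sox17 (533 and 473), Mecom (2016 and 1605) and Klf2 (1999 and 1952) were within 1.5-fold. Hey1 was the 1 factor of 18 past it, against 13.7% of all genes.

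These junction and Notch values depended on which members were counted. In the Sema3g-leaning members alone, the log2 ratios of Gja4, Gja5 and Jag1 were -0.58, -0.48 and -0.58, just under 1.5-fold, and that of Vegfc was -0.34 against -0.65 in all members. Hey1 was at -0.56 in cells with male transcripts alone, and Gja1 at 0.29 in cells with female transcripts. Gja1 was also under 1.5-fold in Sema3g-leaning members (0.53) and in cells without signs of a second cell (0.48). Ace was at -0.58 in the latter cells and at -0.48 in Bmx-leaning members, both under 1.5-fold. In the 1277 cells without signs of a second cell, 7 of 25 surface genes were lower and 1 higher, with a median of -0.45.

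Genes of elastic fibres and interstitial matrix were lower in adult WT in 17 of 20 measured and higher in none, with a median log2 ratio of -0.96. The shares over all genes measured were 7.69% lower and 5.97% higher. Eln went from 1151 to 465 CPM (-1.31, interval -1.37 to -1.25) and from 92.7% to 81.4% of cells. Fbln5 went from 856 to 407 (-1.07), Lox from 103 to 41.4 (-1.32), Fn1 from 720 to 347 (-1.05) and Htra1, a secreted protease that cuts matrix and TGF-beta binding proteins, from 193 to 80.9 (-1.26). Fbn1, the microfibril gene, went from 280 to 165 and Mgp, an inhibitor of calcification, from 1277 to 809 (-0.66). Without all cells with signs of a second cell, the ratio of Mgp was -0.52, under 1.5-fold, while those of Fbln5, Lox, Fn1, Htra1 and Fbn1 were -0.93, -1.16, -0.94, -1.13 and -0.65. Eln was also lower in venular cells (-1.04) but nearly level in capillary cells (-0.18). The matrix list as a whole was lower in 12 of 22 genes of venular and 9 of 18 of capillary cells. Mural marker sums were 958 in young WT and 497 in adult WT, and fibroblast sums 242 and 151. In the cells without signs of a second cell, where 13 of the matrix genes were measured, 9 were lower and none higher (median -0.82), and with called doublets alone left out 11 of 17 were lower and 2 higher. In the former cells Eln stood at 927 and 443.

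Basement membrane genes were lower in 9 of 16 and higher in 1, against 7.69% and 5.97% of all genes measured. Col4a1 went from 547 to 288 CPM (-0.92), Col18a1 from 267 to 131 (-1.03), Lama3 from 294 to 178 (-0.72) and Sparc, a collagen chaperone of the matrix, from 2993 to 1588 (-0.91). In venular and capillary cells 6 and 10 of the 16 were lower, with medians of -0.51 and -0.84, and -0.67 in arterial cells. Col15a1 alone was higher, from 37.4 to 64.8 (0.79), and came to 0.42 without cells with 3 or more UMIs of other-cell markers.

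Of 23 genes of the TGF-beta and BMP list, 4 were lower, none was higher and 19 were within 1.5-fold, with a median log2 ratio of -0.28. Of all genes measured, 7.69% were lower and 5.97% higher. Tgfb2 went from 224 to 113 CPM (-0.99) while it was level in venular (0.08) and capillary cells (-0.06), Bmp6 from 133 to 69.5 (-0.94) and Ltbp1, which stores latent TGF-beta in matrix, from 52.2 to 25.5 (-1.04). The other was Bmpr1a, a BMP receptor gene. Vegfc went from 648 to 414 (-0.65, interval -0.72 to -0.57), and Edn1 from 738 to 656 (-0.17). Slc8a1, the sodium-calcium exchanger, was among the genes furthest below with broad detection, at 464 and 184 (-1.33), with 0.20 in venular and -1.07 in capillary cells.

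Notch target genes did not go together. Hes1 (chromosome 16, 30064384 to 30067796, plus strand) went from 198 to 694 CPM, a log2 ratio of 1.81 (1.71 to 1.91), while Hey1 was lower and Hey2 stood at 29.8 and 22.4. Hes1 was higher by about as much in venular (1.70) and capillary cells (1.63). Over all kept barcodes outside the arterial members, Hes1 also went from 185 in young WT to 464 in adult WT, so its rise was not particular to vessels. Of 19 Notch genes measured, Hes1 was the 1 past 1.5-fold upward, and Jag1, Hey1 and Notch3 were past it downward. Over all genes measured, 5.97% were past it upward and 7.69% downward. Notch3, a gene of mural cells, came from 21 young and 12 adult cells. The receptor Notch1 stood at 376 and 320 and the ligand Dll4 at 327 and 252, both within 1.5-fold.

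**Figure D5:**
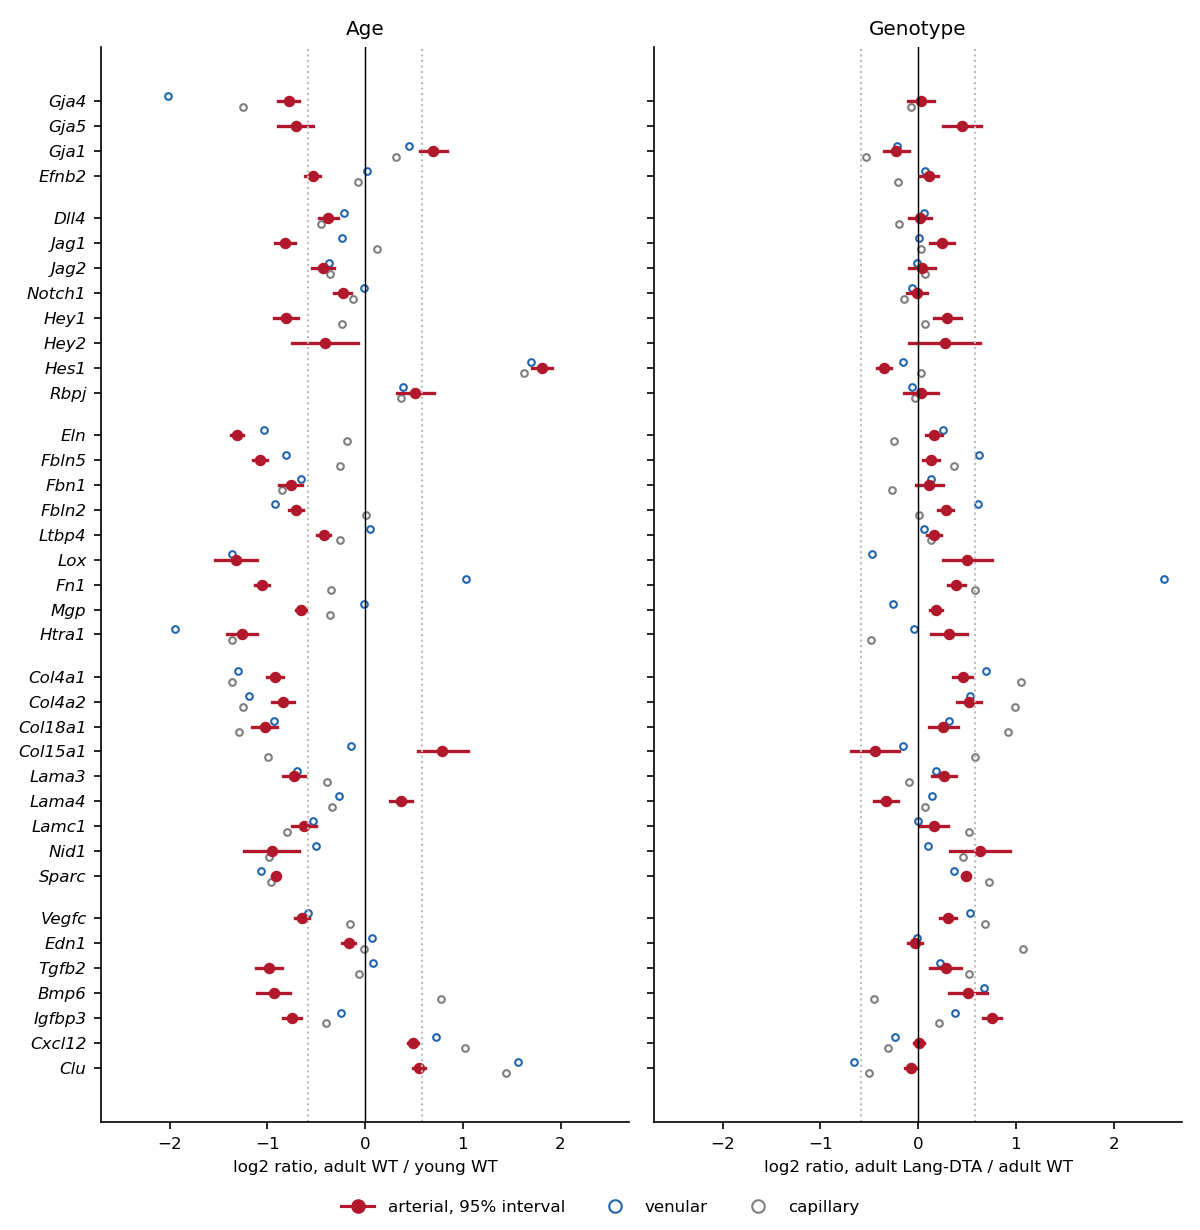
Log2 ratios of summed CPM for age (left, adult WT over young WT) and genotype (right, adult Lang-DTA over adult WT). Red points are arterial cells with exact 95% counting intervals, open circles venular (blue) and capillary cells (grey) where at least 50 UMIs were counted, and dotted lines mark 1.5-fold; Hes1 stands at 1.81 on the left, Eln at -1.31, and on the right Gja4 stands at 0.03 and Igfbp3 at 0.75.

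Several of the largest age ratios were shared by all 3 vessel types. Il31ra, a receptor subunit of interleukin 31, went from 542 to 89.6 CPM (-2.60, with -2.47 in venular and -2.53 in capillary cells), and Lars2, the mitochondrial leucyl-tRNA synthetase, from 1240 to 430 (-1.53, with -1.53 and -1.58). Of the genes named for the largest ratios, 3 that encode ribosomal proteins follow. Rps29 went from 324 to 2007 (2.63), Rps28 from 330 to 1705 (2.37) and Rpl38 from 249 to 1145 (2.20), with 1.75 to 2.33 in the other vessels. These moves were not particular to vessels. Over all kept barcodes outside the arterial members, Il31ra went from 348 to 72.5 and Rps29 from 423 to 1953. Rps28 went from 509 to 2011 there and Rpl38 from 369 to 1432. Tacr1 went from 8.88 to 50.3 (2.50, in 11 of 425 and 75 of 689 cells), with 0.46 in venular and 0.76 in capillary cells, and Fmo2, a monooxygenase, went from 7.40 to 39.1, with 0.87 and 2.13. Tacr1 stood at 394 to 542 in venular cells, and at 6.35 and 25.9 in arterial cells without signs of a second cell; the part of venular transcripts in this difference was not tested. Other genes with large ratios rested on few cells: Mki67, the cycling marker, was seen in 17 young cells, 5 of which gave 87.4% of its UMIs, and Defb6, a defensin, in 7 adult cells, 5 of which gave 99.4%. The smooth muscle genes Myh11, Myl9 and Rgs5 were seen in 18 to 39 young cells.

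Of 10292 genes measured, 501 (4.87%) were at least 1.5-fold higher and 196 (1.90%) at least 1.5-fold lower in adult Lang-DTA, 6.77% in all, around a median log2 ratio of 0.03. Among genes with a UMI in at least 10% of members of the higher library there were 92 (1.15%) higher and 55 (0.689%) lower of 7980, or 1.84% in all. In the cells without signs of a second cell, the counts over all genes with enough UMIs were 220 and 186. None of 18 arterial transcription factors, 19 junction genes, 28 interferon response genes or 16 MHC class I genes was past 1.5-fold in either direction, against the 6.77% of all genes, so lists of this size would hold few. Sox17 stood at 473 and 483 CPM in adult WT and adult Lang-DTA, Gja4 at 182 and 186, Efnb2 at 355 and 382, Cldn5 at 1157 and 1158, Cxcl12 at 1334 and 1342, and Dll4 at 252 and 255. For Sox17 the ratio was 0.03 with an interval of -0.05 to 0.11, for Gja4 0.03 (-0.10 to 0.16) and for Cldn5 0.00 (-0.05 to 0.05). These intervals cover counting error alone.

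In the arterial surface list 2 of 25 genes were higher and none lower in adult Lang-DTA, a share near that of all genes. Igfbp3 (chromosome 11, 7206086 to 7213923, minus strand) stood at 451 in young WT, 269 in adult WT and 454 in adult Lang-DTA, a genotype log2 ratio of 0.75 (0.66 to 0.85) with 0.38 in venular and 0.22 in capillary cells. The adult WT library was thus the low one. Igfbp3 was at 325 and 619 in Sema3g-leaning and at 217 and 249 in Bmx-leaning members of adult WT and adult Lang-DTA, where its ratio of 0.20 was under 1.5-fold. Dkk2, a Wnt antagonist, stood at 63.7, 29.8 and 47.3, a ratio of 0.67 that came to 0.46 in cells without signs of a second cell.

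Of genes lower with age, Eln, Fbln5, Hey1 and Jag1 stood nearer to adult WT than to young WT in adult Lang-DTA. Igfbp3, Gja5, Ltbp1 and Dkk2 stood nearer to young WT. These are named examples, and the genes lower with age were not counted for this order. Eln was at 520 in adult Lang-DTA, against 465 in adult WT and 1151 in young WT; Fbln5 at 446 against 407 and 856; Hey1 at 180 against 146 and 256; and Jag1 at 236 against 199 and 350. Hes1 stood at 546 against 694 and 198. Gja5, at 97.1, lay between 71.0 and 116. Ltbp1 stood at 48.6 in adult Lang-DTA against 25.5 in adult WT, and Dkk2 at 47.3 against 29.8. These are levels set side by side; the age and genotype ratios share the adult WT library, so a low or high value there moves both.

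Of 16 basement membrane genes 1 was at least 1.5-fold higher in adult Lang-DTA and none lower, near the 4.87% and 1.90% of all genes. Col4a1 stood at 288 and 396 CPM (0.46), Col4a2 at 172 and 246 (0.52) and Sparc at 1588 and 2229 (0.49), and Nid1, which links laminin and collagen IV, was the 1 past it (0.63). The median of the list was 0.26, against 0.15 in venular and 0.55 in capillary cells, where 7 of 16 were at least 1.5-fold higher. In the cells without signs of a second cell 4 of 16 were past it and the median was 0.33.

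The matrix list showed 9 of 21 genes higher and none lower, against 4.87% and 1.90% of all genes. Fewer of the list were higher with doublet-type cells left out. Fibroblast marker sums stood at 151 and 537 CPM. Col1a1 went from 24.0 to 79.6 and Col1a2 from 39.7 to 144, in at most 3.92% of members of either library. With called doublets left out 1 of 17 was higher and 3 lower. In the cells without signs of a second cell 1 of 13 was higher, with a median log2 ratio of 0.14 against 0.39 in all members. Col8a1, a short-chain collagen, stood at 250 and 548 (1.14), with 5 of 212 cells giving 56.0% of its UMIs in adult Lang-DTA, and its ratio was -0.06 with called doublets left out. Similarly Angptl7, Itgbl1 and Lrp1b, at the head of the genes higher in adult Lang-DTA, were seen in 8, 10 and 7 of its 451 cells. Hbb-bs, the beta globin gene, stood at 78.1 in adult Lang-DTA and came whole from 5 cells.

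Of genes seen in more cells, Sema3c, a secreted semaphorin that acts through neuropilins and plexin D1, stood at 7.19, 18.9 and 47.1 CPM in the 3 libraries and in 2.59%, 9.43% and 18.6% of cells. The 5 highest cells gave 46.3% of its UMIs in adult WT and 37.2% in adult Lang-DTA. Its genotype ratio was 1.31 (0.99 to 1.64), with 0.87 in venular and 0.24 in capillary cells. The ratio was past 1.5-fold in each of the 15 settings tried, from 0.63 in cells with male transcripts to 1.54 in cells with female transcripts. Settings of minimum UMIs, fold or share of members with a UMI only choose genes and cannot move a ratio. Fewer than 15 settings therefore tested it. Lower in adult Lang-DTA were Mctp1, a calcium-binding membrane protein (1104 and 723, -0.61), March3, a ubiquitin ligase (222 and 143, -0.63), Dusp2, a phosphatase of MAP kinases (69.2 and 41.6, -0.73), Rgs16, a regulator of G protein signalling (127 and 81.1, -0.65), and Slco2b1 (60.2 and 38.2, -0.66). All 5 were lower in arterial than in venular cells, with edgeR log2 differences of -2.05, -1.71, -1.77, -1.90 and -2.34 in that order. In the cells without signs of a second cell, their genotype ratios were -0.27, -0.44, -0.53, -0.17 and -0.19, none past 1.5-fold. With called doublets alone left out, Mctp1, Rgs16 and Slco2b1 were at -0.56, -0.42 and -0.57, under 1.5-fold, while March3 and Dusp2 stayed past it.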

How the data were processed

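The deposited UMI counts per gene and barcode were made by the authors with Cell Ranger 8.0.1, per the file headers, on GRCm38, per the submitters' processing notes, from 10x 3′ libraries. Barcodes were filtered and gated as stated, in Python 3.11.15. Counts were summed over the cells of a group in each library and given as CPM within that group. Age and genotype used ratios of sums with exact conditional intervals, for genes with at least 50 UMIs over both libraries and a fold of 1.5. Vessel types were compared with edgeR 4.0.16 at an adjusted p under 0.05, with DESeq2 1.42.0 as an alternative. Library numbers pair the vessel types because the 3 groups come from the same library, and the library term is that block. Doublets were called against 2 simulated doublets per cell, with 30 principal components and 50 neighbours. On simulated data, edgeR recovered 93% of genes changed 2-fold for venular cells and 94% for capillary cells. It recovered 69% and 51% of those changed 1.5-fold, with 6 and 17 false calls. The simulation had a common mean profile, a fixed dispersion and no difference between libraries. It therefore checks the steps and does not give the power in these data. Gene symbols with more than 1 identifier, 35 in all, were read from the more abundant one. Named genes were those with the largest change by fixed ranking rules (12 per direction), the given markers and the listed genes. The members and lists were chosen with earlier results of these data known. An imiquimod condition was not analysed here.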

Additional observations from a re-analysis of the deposited data

Results flagged for a closer look

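Only a chosen set of genes was searched for opposite ratios, so the count below is not one over all genes measured. In 7 cases within that set, a gene was past 1.5-fold in one direction in arterial cells. It was past it in the opposite direction in another vessel type, under the same comparison. Genes outside the set did so too with genotype, among them Aspn (2.01 in arterial, -1.93 in capillary cells), Rbms3 (1.84 and -2.15) and Meg3 (2.12 and -1.31). They were seen in 3.10%, 6.21% and 2.88% of adult Lang-DTA arterial cells. The difference between vessel types was not tested in any of them. With age, Bmp6 had a log2 ratio of -0.94 (95% counting interval -1.11 to -0.77) in arterial and 0.78 (0.56 to 1) in capillary cells, where it went from 67.2 to 115 CPM. Col15a1 had 0.79 (0.54 to 1.05) in arterial and -0.99 (-1.09 to -0.89) in capillary cells, from 558 to 281, and its arterial ratio was 0.34 without all doublet-type cells. Col8a1 had -0.66 (-0.75 to -0.56) in arterial and 1.87 (1.45 to 2.31) in venular cells, from 7.66 to 27.9, and its arterial ratio was -0.16 without called doublets and -0.36 without all doublet-type cells, under 1.5-fold. Fn1 had -1.05 (-1.13 to -0.98) in arterial and 1.03 (0.38 to 1.73) in venular cells, from 3.54 to 7.26. With genotype, Gas1 had 1.34 (0.99 to 1.70) in arterial and -0.62 (-0.97 to -0.27) in capillary cells, from 34.2 to 22.3. Its arterial ratio was 0.16 without called doublets, and 5 cells gave 44.6% of its UMIs in adult Lang-DTA. Ltbp1 had 0.93 (0.63 to 1.23) in arterial and -1.16 (-1.62 to -0.72) in capillary cells, from 26.7 to 11.9, and its arterial ratio was under 1.5-fold in 2 of 15 settings (0.53 with cells weighted equally, 0.49 in Bmx-leaning cells). Serping1 had 0.75 (0.43 to 1.06) in arterial and -2.37 (-3 to -1.79) in capillary cells, from 28.5 to 5.49. Its arterial ratio was under 1.5-fold in 6 of 15 settings, among them 0.44 without called doublets, 0.38 without all doublet-type cells and 0.33 in female cells. For Ltbp1 and Serping1, the 15 settings include those of minimum UMIs, fold and share of members with a UMI, which cannot move a ratio.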

How the results depend on the processing

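Counts of genes past 1.5-fold moved with the filters. Age gave 3374 higher and 3939 lower with a minimum of 1 UMI, 346 and 267 with at least 200 UMIs, 190 and 250 with a fold of 2, and 412 and 412 among genes in at least 10% of members. Genes lower with age were 523 without cells with 3 or more other-cell UMIs and 527 without all doublet-type cells. Genotype gave 3467 and 2957, 84 and 40, 188 and 39, and 92 and 55 in the first 4 settings. Genes higher with genotype were 233 without called doublets, 221 without other-cell UMIs, 323 in male cells and 220 without all doublet-type cells, and genes lower were 334 in male cells. The genotype matrix median was 0.163 without called doublets, 0.166 without other-cell UMIs, 0.163 in male and 0.217 in female cells, 0.139 without all doublet-type cells and 0.232 in the 10% setting, and the arterial surface median was 0.223 in male cells. Arterial shares in young WT, then adult WT, then adult Lang-DTA were 29.1%, 24.1% and 21.1% at a sum of 3 or more, 19.2%, 14.3% and 10.8% at 6 or more, and 9.38%, 8.28% and 7.41% thinned. Without 1 library, edgeR called 1364 to 1915 higher and 1468 to 2028 lower against venular cells, and 970 to 1307 and 780 to 1278 against capillary cells. Without the library block it called 1560 and 1652, and 1121 and 972; DESeq2 called 1507 and 1657, and 1192 and 1043. Some single ratios turned sign. For age these were Rgs5 (0.221 without other-cell UMIs, 0.0606 without all doublet-type cells), Bgn (0.221) and Col8a1 (0.227) in female cells, and, in Bmx-leaning cells, Bmx (-0.034), Cacna1c (0.173), Cacnb2 (0.676), Myl9 (0.158) and Pde3a (1.68). For genotype without called doublets they were Aspn (-1.41), Bgn (-0.104), Col8a1 (-0.055), Gpc6 (-1.16) and Meg3 (-1.26), and otherwise Tagln (0.448 without other-cell UMIs, 0.37 without all doublet-type cells), Bgn (-0.0504, female cells), Fabp5 (-0.411) and Sntb1 (-0.827, both in Bmx-leaning cells). The cause was not tested. Leaving out all doublet-type cells, the Sema3g-leaning or Bmx-leaning split and the 10% setting were chosen after seeing the data. Genes under 50 UMIs over both libraries were not compared for age or genotype, and depth limits them.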
